A study of Homo sapiens with 4 samples.

Results

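The centrosome and cilium transport genes described here are those whose symbol begins with CEP, IFT or BBS followed by a number. They were measured through exon skipping in HEK293T cells, a human embryonic kidney line. Each skipped exon event is a middle exon with its neighbours on both sides, counted by the reads that span the junctions of the form with the exon and of the form without it. The deposited table held 365 events of these genes, and 316 of them reached a mean of 20 junction reads over the 4 libraries. Those 316 events, of 54503 events at that depth and 65601 in the table, are the members. They lie in 274 exons of 49 genes: 188 events in 30 CEP genes, 95 in 13 IFT genes and 33 in 6 BBS genes. All 49 genes kept at least 1 event, with 1 to 20 events per gene. The members just inside the minimum were exons of CEP57L1 and IFT80 with 20.50 reads each and of IFT43 with 20.75 reads. Just outside it were exons of CEP57L1 and IFT88 with 19.25 reads each and of CEP97 with 18.25 reads.

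According to the labels, 2 libraries are of cells that received an antisense oligonucleotide (ASO) against the small nucleolar RNA SNORD89, and 2 are of cells with treatment none. The ASO was a gapmer, a modified DNA strand that directs cleavage of the RNA it pairs with, transfected at 70 nM. The medium was changed at 24 hours and poly(A) RNA was taken at 48 hours. The labels of the cells without ASO carry the same transfection text, and no control ASO is named. The question set by the design is which exons are spliced differently when SNORD89 is depleted. No header or label says which of the 2 sets of libraries in the table is the ASO-treated one, so every direction below is the first set against the second. SNORD89 has no event in the table, so its depletion was not checked here. Within a set the libraries are called library 1 and library 2 by their place in the table, and these numbers pair nothing.

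The centrosome organises microtubules around a pair of centrioles, and many CEP proteins build the centrioles, their appendages or the material around them. The older centriole can template a primary cilium. IFT proteins form the IFT-A and IFT-B complexes, trains that carry cargo along the cilium, and BBS proteins include the subunits of the BBSome, an adaptor that moves membrane proteins out of and into the cilium.

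An event was called when the authors' deposited table gave a false discovery rate (FDR) under 0.05 and a difference in inclusion level of at least 0.1 in either direction. The inclusion level is the fraction of transcripts, from 0 to 1, estimated to hold the exon after each form's reads are divided by its effective length. Of the 316 members, 9 were called (2.85%), against 2.71% of all tested events. They lie in 8 genes: CEP164, CEP44, CEP89 with 2 exons, CEP72, IFT122, IFT140, IFT80 and BBS5. The 7 called exons that code for protein are shown here because the differences described below rest on them. Each is the sense strand from GENCODE release 29 transcripts, written 5′ to 3′. Capitals mark the last 3 bases, where the exon meets the 5′ splice site. Coordinates are those of the deposited table (hg19), with starts counted from 1, and identifiers are as the table gives them.
CEP164, ENSG00000110274.10, chr11:117257919-117258128, plus strand: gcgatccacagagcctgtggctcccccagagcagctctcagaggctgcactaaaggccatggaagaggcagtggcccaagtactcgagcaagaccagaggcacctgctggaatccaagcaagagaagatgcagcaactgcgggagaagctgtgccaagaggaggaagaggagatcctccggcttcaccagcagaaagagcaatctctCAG
CEP72, ENSG00000112877.6, chr5:635487-635699, plus strand: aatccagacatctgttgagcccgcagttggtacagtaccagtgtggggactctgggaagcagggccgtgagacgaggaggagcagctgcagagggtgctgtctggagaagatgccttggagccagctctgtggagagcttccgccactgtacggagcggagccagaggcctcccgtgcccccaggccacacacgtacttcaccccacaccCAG
CEP89, ENSG00000121289.13, chr19:33414345-33414448, minus strand: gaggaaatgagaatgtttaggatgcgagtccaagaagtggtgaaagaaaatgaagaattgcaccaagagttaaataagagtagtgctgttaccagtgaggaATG
CEP89, ENSG00000121289.13, chr19:33430763-33430791, minus strand: atggtaaacaccctgttctgaatttaAAG
IFT122, ENSG00000163913.7, chr3:129198628-129198765, plus strand: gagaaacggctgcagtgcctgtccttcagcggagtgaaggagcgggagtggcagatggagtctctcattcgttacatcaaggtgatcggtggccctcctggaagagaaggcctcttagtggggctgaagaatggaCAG
IFT140, ENSG00000187535.9, chr16:1618218-1618335, minus strand: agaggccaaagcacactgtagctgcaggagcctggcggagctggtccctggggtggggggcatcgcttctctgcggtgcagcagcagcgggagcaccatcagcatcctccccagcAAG
BBS5, ENSG00000163093.7, chr2:170354137-170354199, plus strand: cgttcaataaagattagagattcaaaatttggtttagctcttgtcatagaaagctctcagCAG

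Of these 7 exons, 6 end in AG and the CEP89 exon of 104 nt ends in TG. Among all 268 member exons matched to a sequence, 56.7% end in AG. The 7 exons run from 29 to 213 nt, and their GC content runs from 34.5% in the short CEP89 exon to 66.1% in IFT140. The remaining called exons, in CEP44 and IFT80, are annotated only in transcripts marked for nonsense-mediated decay, the pathway that removes transcripts with an early stop codon, and are not printed.

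Depth and the number of events without a read differed between the libraries. Junction reads summed over the table ran from 38613055 to 43929373 per library, and of each 1000000 such reads member events took 1178 and 1039 in the first set against 812 and 903 in the second. Of the 4 libraries, library 2 of the second set stood apart: 3280 events of the table were without a read in it, against 513 to 624 in the others, and its median member inclusion was 1.00, against 0.975 to 0.988. Among members with a mean inclusion from 0.05 to 0.95, the 2 libraries lay over 0.2 apart for 8 of 74 events (10.8%) in the first set and 17 of 74 (23.0%) in the second. The same shares over all tested events of that range were 7.87% and 22.3%. Of the markers reported in 293 cells, VIM had 3859 to 5561 junction reads per library and PAX2 52 to 89. NEFM, LHX1 and PAX8 had no event, nor did the blood and liver markers PTPRC, CD3E and ALB, and a missing event says nothing of a gene's level.

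Called member events split into 4 with a higher inclusion in the first set (1.27%, against 1.34% of all tested events) and 5 with a lower one (1.58%, against 1.37%). By family, 5 of 188 CEP events, 3 of 95 IFT events and 1 of 33 BBS events were called, or 2.66%, 3.16% and 3.03%. The shares lie near the background in the whole and in each direction, so the 9 calls are described exon by exon and not as a property of the gene group. A deposited FDR under 0.05 at any size of difference was given to 19 members (6.01%, against 5.72% of all). A quasi-binomial test, with Benjamini-Hochberg adjustment over all 54503 events, called 0 members and 0 events in all (0%). Its error is the counting error scaled by a dispersion of at least 1. That dispersion is drawn from the event's own scatter within sets towards a value pooled over events (prior of 9.82 degrees of freedom). An event's own scatter thus enters only in part, and a low unadjusted p can rest on 1 library, as in IFT122 (quasi-binomial p = 0.00810). At an unadjusted p under 0.05 that test, run with limma's moderated dispersion, held 25 members (7.91%, against 7.69% of all), and the smallest adjusted p of a member was 0.644.

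The exon with the lowest FDR among members was in CEP164, a protein of the distal appendages that dock the older centriole to the membrane. It has 210 nt and codes for protein as exon 15 of 33 in the matched transcript. Its inclusion level was 0.840 and 0.833 in the first set, from 138 and 143 reads, with 95% Wilson intervals of 0.745 to 0.904 and 0.740 to 0.898. In the second set it was 0.982 and 1.00, from 108 and 153 reads, with intervals of 0.904 to 0.997 and 0.952 to 1.00. Both libraries of the first set lay below both of the second. The authors' deposited table lists a difference of -0.154 with an FDR of 1.21e-05. The quasi-binomial p with limma's dispersion was 0.00190 before adjustment and 0.644 after it. Leaving out any 1 library kept the difference between -0.163 and -0.145, and with form lengths left uncorrected it was -0.084.

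**Figure D1:**
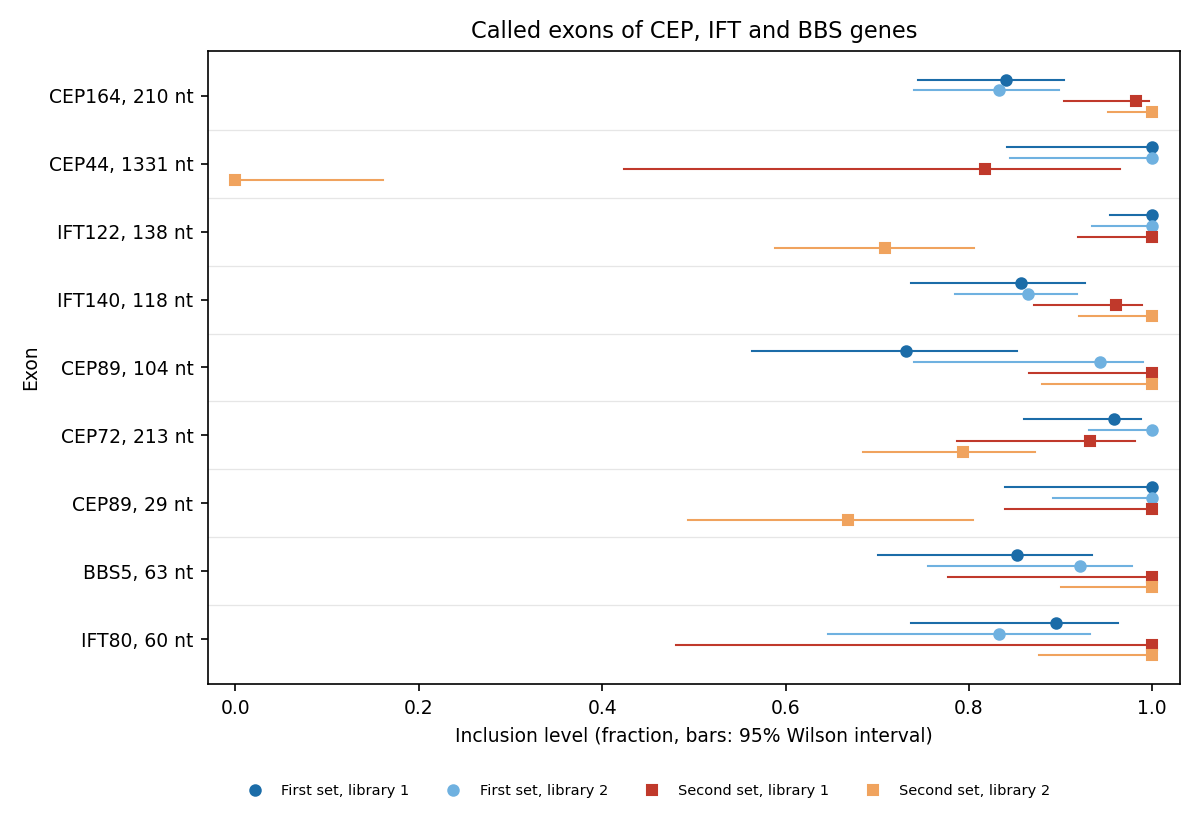
Inclusion level of the 9 called exons in each of the 4 libraries, with 95% Wilson intervals that cover counting error only; circles are the first set and squares the second. In CEP164 both circles (0.840 and 0.833) lie below both squares (0.982 and 1.00), while in IFT122 only library 2 of the second set (0.709) lies below 1.00.

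CEP89, another distal appendage protein, had 2 called exons with opposite signs. The exon of 104 nt, exon 12 of 19, was included at 0.731 and 0.943 in the first set (45 and 29 reads) and at 1.00 in both libraries of the second set, from 42 and 48 reads. The sets did not overlap, but the first set's libraries lay further from each other than its higher one from the second set. The difference in the authors' deposited table was -0.163 with an FDR of 0.00281, and without library 1 of the first set it was -0.057. The exon of 29 nt, exon 6 of 19, was included at 1.00 in 3 libraries and at 0.668 in library 2 of the second set (95% Wilson interval 0.494 to 0.805, from 34 reads). Its deposited difference was 0.166 at FDR 0.00710 in the authors' deposited table, and without that library it was 0. Neither length is a multiple of 3, and in the matched transcript skipping either exon would shift the reading frame into an earlier stop codon.

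CEP72, a protein of the satellites around the centrosome, had a called coding exon of 213 nt. Its inclusion level was 0.958 and 1.00 in the first set against 0.932 and 0.794 in the second, each level resting on 57 to 113 reads. The sets did not overlap, although 0.932 and 0.958 lie close together. The authors' deposited table lists a difference of 0.116 with an FDR of 0.00298. Without library 2 of the second set the difference was 0.047, and without library 2 of the first set it was 0.095.

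CEP44, a centriole protein, had the largest difference among all 316 members. Its called exon (gene ENSG00000164118.8), chr4:175238486-175239816, has 1331 nt, the longest of any member, and is annotated only in transcripts marked for nonsense-mediated decay. It was included at 1.00 in both libraries of the first set, from 41 and 42 reads. Within the second set it was included at 0.818 in library 1, with 9 of 10 reads for inclusion, and at 0 in library 2, with 0 of 10 reads. The 95% Wilson intervals of these last 2 levels are 0.424 to 0.965 and 0 to 0.161. For this exon the authors' deposited table lists a difference of 0.591 with an FDR of 2.85e-04, and without library 2 of the second set the difference was 0.182.

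Among the IFT genes, both subunits of the IFT-A complex with a call, IFT122 and IFT140, had it in a coding exon. The IFT122 exon has 138 nt, exon 14 of 31, and skipping it would keep the reading frame and the stop codon. It was included at 1.00 in 3 libraries, from 84 to 152 reads, and at 0.709 in library 2 of the second set, from 91 reads (95% Wilson interval 0.588 to 0.806). The authors' deposited table lists a difference of 0.145 at FDR 0.00116. The sets overlapped at 1.00, and without library 2 of the second set the difference was 0.

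The IFT140 exon has 118 nt, exon 15 of 31, and skipping it would shift the frame into an earlier stop codon. Its inclusion level was 0.857 and 0.865 in the first set (82 and 162 reads) and 0.961 and 1.00 in the second, from 91 and 79 reads. Both libraries of the first set lay below both of the second, and the libraries within each set lay close together. The difference in the authors' deposited table was -0.119 with an FDR of 0.00264, and it ran from -0.139 to -0.101 when any 1 library was left out, but was -0.072 with form lengths left uncorrected. The same exon in an event with another neighbouring exon, at 53.75 reads per library, differed by -0.025 at FDR 1.00 in the authors' deposited table and by 0.027, the other direction, without library 2 of the second set. There its levels were 0.929 and 0.915 in the first set against 0.895 and 1.00 in the second, which overlap.

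IFT80 (ENSG00000068885.10), a subunit of the IFT-B complex, had a called exon of 60 nt at chr3:160083881-160083940 that is annotated only in transcripts marked for nonsense-mediated decay. It was included at 0.895 and 0.833 in the first set (39 and 32 reads) and at 1.00 in both libraries of the second set, from 5 and 38 reads. The library with 5 reads has a 95% Wilson interval of 0.481 to 1.00. The authors' deposited table lists a difference of -0.136 with an FDR of 0.0242. The unadjusted quasi-binomial p with limma's dispersion was 0.0614, the 1 called member at which it was not under 0.05. A longer form of this exon, chr3:160083831-160083940, was not called. Its difference was -0.051 at FDR 0.190 in the authors' deposited table.

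BBS5, a BBSome subunit that binds membrane lipids, had the 1 called exon of the BBS genes, with 63 nt in exon 8 of 12. Skipping it would keep the reading frame and the stop codon, and the skipping junction is itself annotated. Its inclusion level was 0.852 and 0.921 in the first set (46 and 35 reads) and 1.00 in both libraries of the second set, from 19 and 49 reads. The sets did not overlap. The authors' deposited table lists a difference of -0.113 with an FDR of 0.0239, and without library 1 of the first set the difference was -0.079.

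Taking the 9 together by library, 7 had sets that did not overlap and 8 had an unadjusted quasi-binomial p under 0.05. Both counts rest on the same reads by which the 9 were called, so they are not separate evidence for the calls. No share over all called events stands beside these 2 counts, so they say nothing particular of the members. All 5 exons with a lower inclusion in the first set kept a difference of at least 0.1 without library 2 of the second set, and 3 of them kept it without library 1 of the first set. Of the 4 exons with a higher inclusion in the first set, CEP44 alone kept it without library 2 of the second set, and 2 went to 0. Over all tested events, 374 of 729 called as higher in the first set (51.3%) and 628 of 748 called as lower (84.0%) kept that difference without the same library. Without library 1 of the second set the differences of CEP44, IFT122, CEP72 and the 29 nt exon of CEP89 were 1.00, 0.291, 0.185 and 0.332, and without library 2 of the first set that of the 104 nt exon of CEP89 was -0.269. Without the correction for form lengths, 4 of the 9 kept a difference of at least 0.1, against 65.0% of all called events. That difference was then -0.084 for CEP164, 0.088 for IFT122, -0.072 for IFT140, 0.064 for CEP72, -0.083 for BBS5 and -0.106 for the 104 nt exon of CEP89. All 9 called members had a mean inclusion above 0.5 and a median depth of 41.00 reads, against 87.75 reads for members not called. Over all tested events these median depths were 48.50 reads for called events and 198.5 for events not called. Of the 9, 5 have a length divisible by 3 and 3 have an annotated skipping junction. The counts by inclusion, length and junction have no share over all called events beside them.

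**Figure D2:**
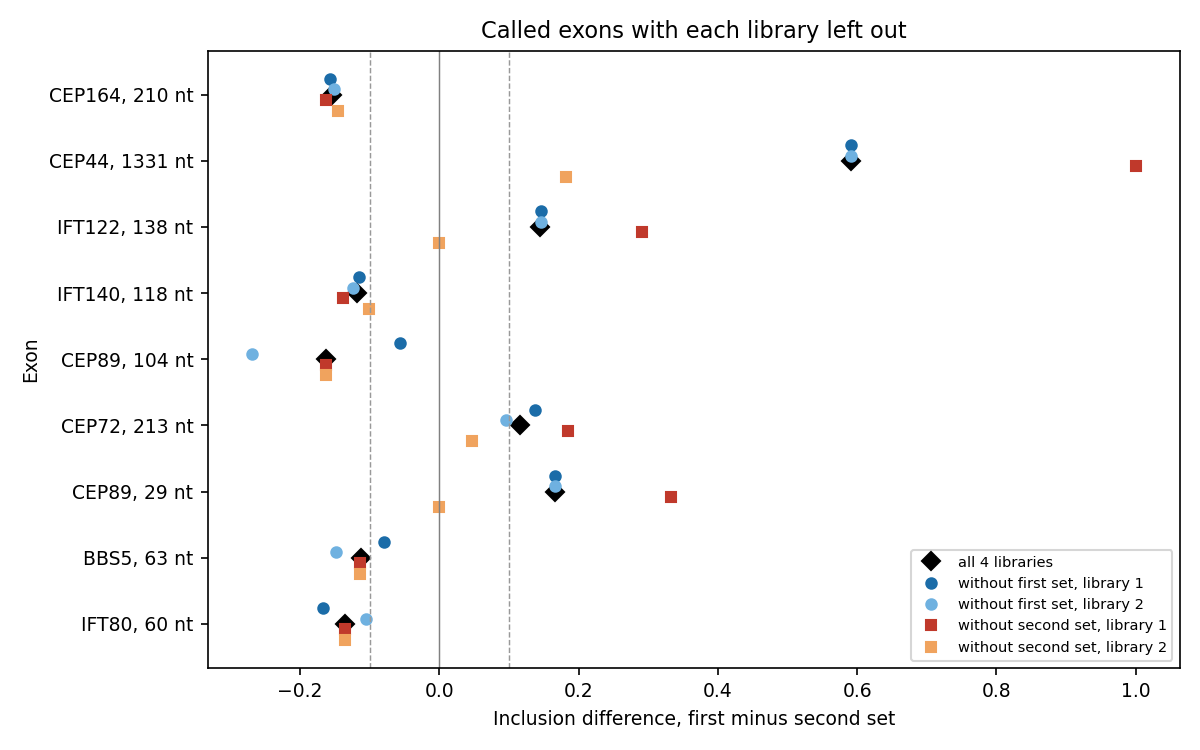
Inclusion difference, first minus second set, of the 9 called exons from all 4 libraries (diamonds) and with each library left out in turn (circles, first set; squares, second set); dashed lines stand at 0.1 in either direction. Without library 2 of the second set IFT122 and the 29 nt exon of CEP89 lie at 0, and CEP164 lies at -0.145.

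Most member exons were included nearly always. A mean inclusion above 0.95 was found in 66.8% of members, against 66.1% of all tested events, and 31 members had one under 0.05. The remaining 74 had an intermediate mean inclusion, from 0.05 to 0.95, and all 9 calls lay among them (12.2%, against 11.0% of all tested events of that range). The median absolute difference between the sets was 0.0220 over members and 0.0110 over all tested events, at median depths of 87.75 and 190.0 reads per library. Within a set, the median standard deviation of a member's inclusion level was 0.0208. Among all members, 23 differed by at least 0.1 (7.28%, against 7.19% of all tested events). In 68 members (21.5%, against 22.8% of all) the 2 sets did not overlap: the first set was higher in 23 (7.28%, against 9.29%) and lower in 45 (14.2%, against 13.5%).

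**Figure D3:**
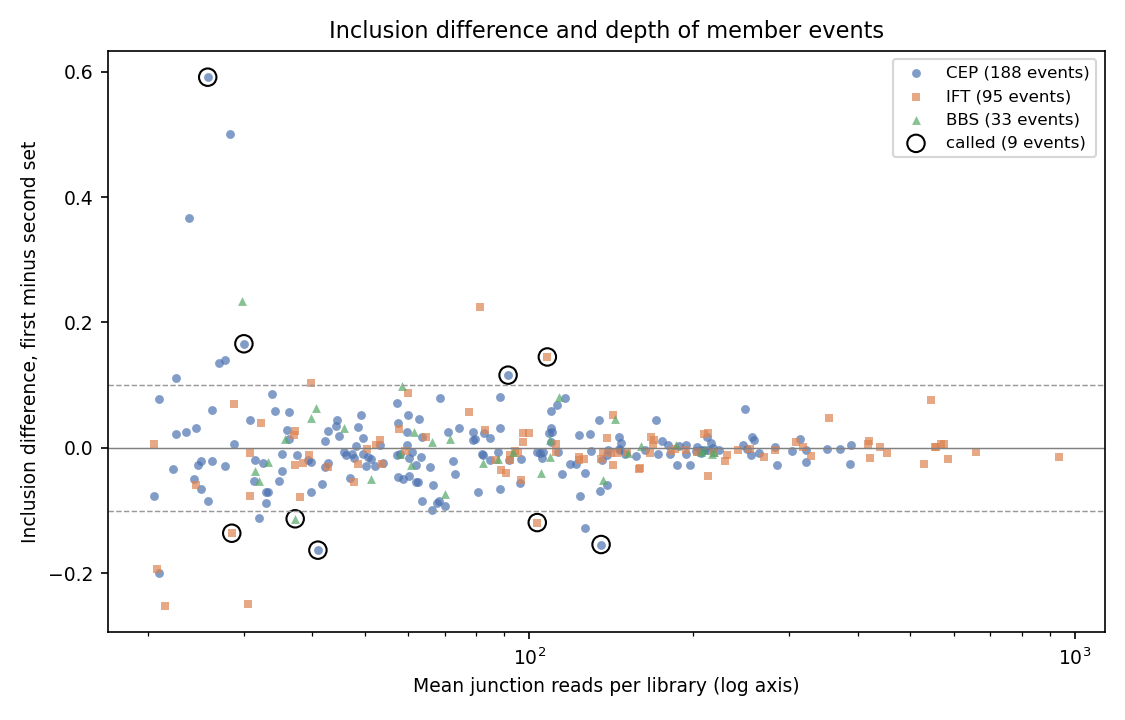
Inclusion difference, first minus second set, of the 316 member events against the mean number of junction reads per library (log axis), by family, with called events ringed and dashed lines at 0.1 in either direction. The called event with the largest difference, 0.591 in CEP44, has a mean of 25.75 reads.

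The alternative exons with most reads in each family gave the closest look at members that are spliced both ways. In CEP78, a centrosomal protein, a coding exon of 48 nt was included about as often as it was skipped, at 0.477 and 0.533 in the first set against 0.559 and 0.501 in the second, each level resting on 359 to 435 reads. The sets overlapped, and the difference was -0.025 at FDR 1.00 in the authors' deposited table, running from -0.054 to 0.005 with 1 library left out. Skipping this exon would keep the reading frame. An exon of 44 nt in CEP57, which encodes a protein of the pericentriolar material, was mostly skipped, at 0.152 and 0.244 in the first set against 0.166 and 0.250 in the second. Here the 2 libraries of a set lay further apart than the sets, which differed by -0.01 in the authors' deposited table and by -0.056 to 0.036 with 1 library left out.

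The exon of 114 nt in CEP250, which encodes a linker between the centrioles, was included at 0.965 and 0.885 in the first set against 0.849 and 1.00 in the second, each level resting on 247 to 341 reads. Its 2 set means were both 0.925 although single libraries lay far apart, and the difference ran from -0.075 to 0.076 with 1 library left out. In its other 2 events, with other neighbouring exons, the difference was 0.009 and 0.026 in the authors' deposited table, and 0 in both without library 1 of the second set. The exon was not called.

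IFT20, an IFT-B subunit that also sits at the Golgi, held the deepest alternative exon of the members. An exon of 237 nt, partly coding, was included at 0.308 and 0.311 in the first set, from 452 and 556 reads. In the second set it was included at 0.261 and 0.205, from 567 and 603 reads. Both libraries of the first set lay above both of the second. The authors' deposited table lists a difference of 0.077 with an FDR of 0.0456, below the size asked of a call, and without library 2 of the second set it was 0.048. A shorter form of this exon, of 36 nt, had levels of 0.121 and 0.117 against 0.0864 and 0.0572, a difference of 0.048 at FDR 0.0550 in the authors' deposited table. Both events count the same skipping reads, so they are not independent.

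The other deep IFT exons differed between the sets by no more than 0.045 in either direction with all 4 libraries. In IFT46, an IFT-B subunit, a coding exon of 153 nt was included at 0.0888 and 0.0878 in the first set against 0.0975 and 0.0960 in the second, from 152 to 314 reads. These sets do not overlap, yet the deposited difference is only -0.008, at FDR 1.00 in the authors' deposited table. The coding exon of 99 nt in IFT172, also of IFT-B, was included between 0.896 and 0.926 in all 4 libraries, with differences from -0.026 to -0.002 when 1 was left out. An exon of 215 nt in IFT52, a core IFT-B subunit, ran from 0.838 to 0.941 with overlapping sets, and its difference ran from -0.082 to -0.008 with 1 library left out.

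In the BBS genes, BBS1 and BBS4 each had 2 alternative exons among the deepest. In BBS1, the subunit through which the BBSome binds the GTPase ARL6, a coding exon of 35 nt was included at 0.851 and 0.807 in the first set against 0.913 and 0.847 in the second. Those sets overlap, and the difference ran from -0.083 to -0.018 with 1 library left out. Its exon of 194 nt, known only from transcripts marked for nonsense-mediated decay, was included at 0.0909 and 0.103 against 0.0345 and 0.0323, from 30 to 48 reads. The first set lay above the second there, and the difference was 0.064 at FDR 0.138 in the authors' deposited table, or 0.112 without the correction for form lengths. In BBS4, the coding exon of 69 nt was at 0.879 and 0.899 in the first set against 0.760 and 0.856 in the second, a difference of 0.081 at FDR 0.257 in the authors' deposited table. That difference was 0.034 without library 1 of the second set and 0.129 without library 2. The BBS4 exon of 103 nt ran from 0.0130 to 0.179, with both libraries of each set far apart and a difference of either sign, from -0.04 to 0.104, with 1 library left out.

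**Figure D4:**
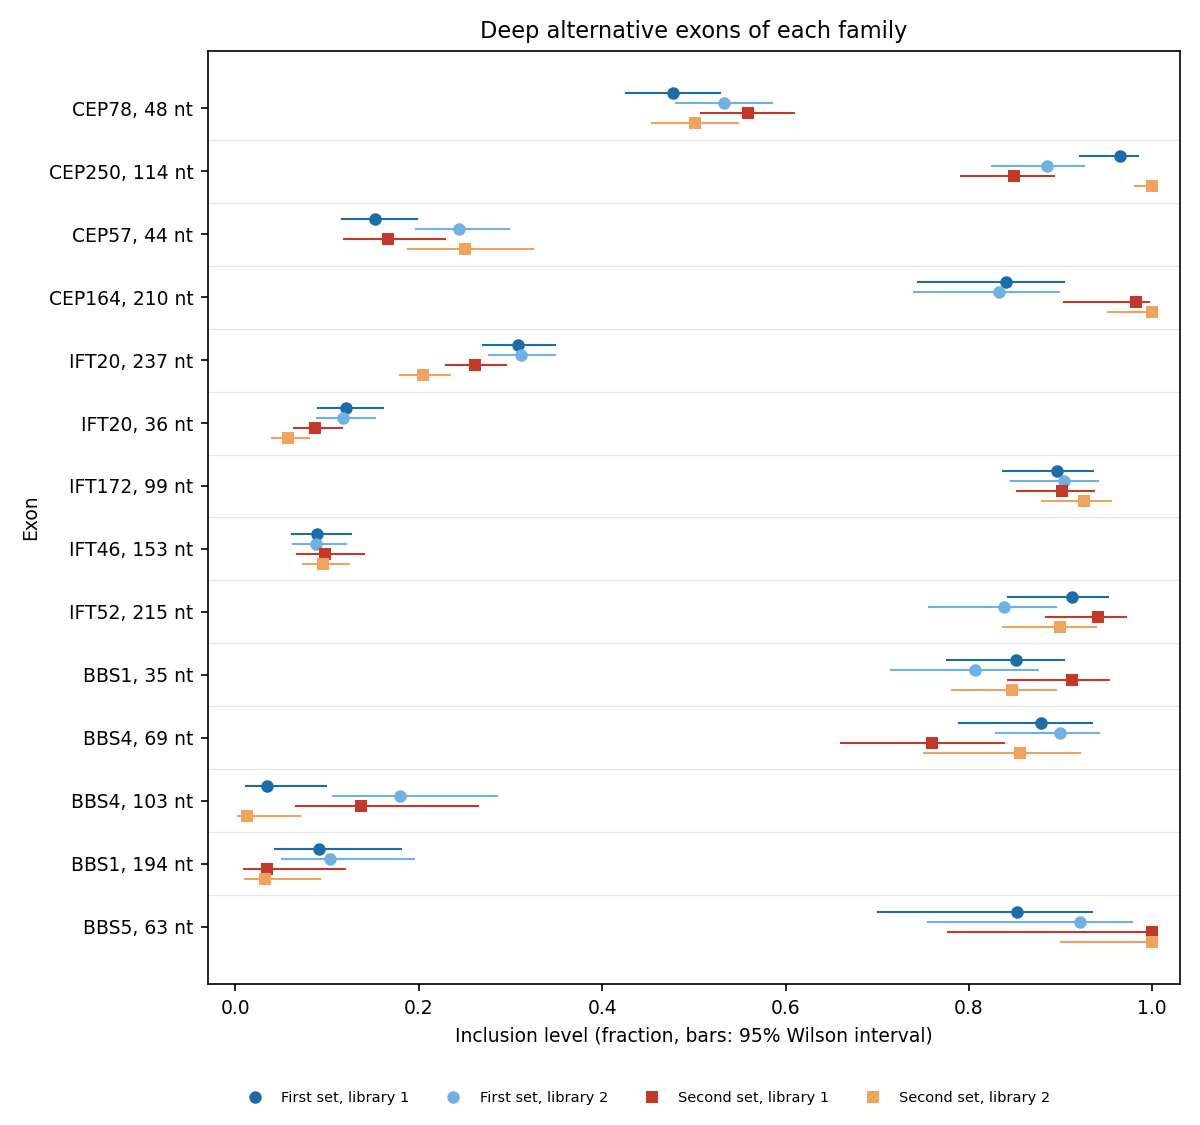
Inclusion level, with 95% Wilson intervals, of 14 exons with many junction reads and an intermediate mean inclusion in the CEP, IFT and BBS families, by library (circles, first set; squares, second set). The IFT20 exon of 237 nt runs from 0.311 down to 0.205 with the sets apart, while the CEP78 exon of 48 nt stays between 0.477 and 0.559 with the sets overlapping.

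A further 10 members had an FDR under 0.05 in the authors' deposited table with a difference under 0.1, of 0.045 to 0.088 in size, 5 in each direction. With the calls they make up the 19 members at that FDR (6.01%, against 5.72% of all tested events). The 10 include the coding exon of 181 nt in CEP70, at 1.00 in both libraries of the first set and at 0.922 and 0.919 in the second. There both sets were tight and apart, and the authors' deposited table gives 0.079 with an FDR of 0.0107; without the correction for form lengths it was 0.041. In CEP76 a coding exon of 98 nt had 0.850 and 0.974 in the first set and 1.00 in both libraries of the second, a difference that was -0.026 without library 1 of the first set. In CEP164 a second exon, of 103 nt and partly coding, had 0.875 and 0.957 in the first set and 1.00 in both libraries of the second, with a difference of -0.084 at FDR 0.0182 in the authors' deposited table and of -0.043 without library 1 of the first set. These 3 were chosen after their values were seen, as were the exons of the next paragraph. Of the rest of the 10, the CEP170B and IFT20 events kept their direction with any 1 library left out. Without library 2 of the second set the difference went from -0.074 to 0.009 in BBS4 and from 0.062 to -0.013 in CEP85. For both CEP95 events, which count the same skipping reads, it went from 0.045 and 0.069 to -0.014 and -0.021 without that library. In CEP250 it went from -0.059 to 0.011 without library 1 of the first set.

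Large differences without a call were found in 7 events of 5 genes, with a difference of at least 0.2, FDR values of 0.109 to 1.00 in the authors' deposited table and 21.00 to 81.25 reads per library. The deepest was a coding exon of 147 nt in IFT122, at 0.702 and 0.710 in the first set against 0.389 and 0.572 in the second. Its sets do not overlap, and its difference was 0.225 at FDR 0.109 in the authors' deposited table, or 0.134 without library 1 of the second set. In CEP192, the scaffold of the pericentriolar material in mitosis, an exon of 127 nt was at 1.00 in 3 libraries, from 49, 53 and 9 reads, and at 0 in library 2 of the second set, from 2 reads (95% Wilson interval 0 to 0.509), with a difference of 0.5 at FDR 0.290 in the authors' deposited table and of 0 without that library. Skipping reads that came from 1 library alone, counted after the data were seen, were found in 11 of 110 members with at least 5 skipping reads in all and a mean inclusion above 0.5 (10.0%, against 6.83% of all such events). In 6 of the 11 that library was library 2 of the second set, which also gave 42.7% of such events over the table; its part in the calls beyond the values above was not tested.

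Member exons resembled the rest of the table in length and frame. Their median length was 118.5 nt, against 118.0 nt, and 39.6% had a length divisible by 3, against 40.0%. Among members of intermediate inclusion that share was 47.3%, against 43.2% of all such events. Of the 306 members matched to GENCODE release 29 annotation, 236 (77.1%, against 74.3% of all matched events) lie in an exon that codes for protein throughout, and the skipping junction is annotated for 117 (38.2%, against 38.0%). Where the effect of skipping could be read from 1 transcript, it would shift the frame into an earlier stop codon for 94 events, shift the frame alone for 1, and keep the frame and the stop codon for 84.

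Exons known only from transcripts marked for nonsense-mediated decay made up 23 member events in 15 genes. They were mostly skipped: 15 had a mean inclusion under 0.05, 4 an intermediate one and 4 one above 0.95. Exons of this class with a low inclusion include one of 76 nt in IFT27, at a mean of 0.00385 from 569.2 reads per library, and one of 77 nt in IFT172, at 0.00210 from 168.8 reads. The BBS4 exon of 58 nt in this class had levels of 0.0179 and 0 in the first set against 0 and 0.165 in the second. Its FDR was 0.00608 at a difference of -0.074 in the authors' deposited table. Without library 2 of the second set that difference was 0.009. The called exons of this class were those of CEP44 and IFT80 described above, with mean inclusions of 0.705 and 0.932.

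Junction reads on each gene's deepest event, per 1000000 junction reads of the library, show the depth behind these levels. They are not an expression measure, and no test was made. In 25 of the 49 genes (51.0%, against 50.8% of all 9999 genes) both libraries of the first set lay above both of the second, in 6 (12.2%, against 16.9%) both lay below, and in 18 the sets overlapped. CEP170, a protein of the subdistal appendages, had 8.60 and 4.10 reads per 1000000 in the first set against 0.816 and 0.728 in the second. The ratio of the set means there was 8.22, the highest of the 49 genes, and all 6 CEP170 events had the first set higher. CEP85L followed with a ratio of 6.18, CEP97 with 5.43 and CEP350 with 3.52. At the other end IFT27, a small GTPase of IFT-B, had 16.2 and 19.9 reads per 1000000 in the first set against 24.8 and 29.3 in the second, a ratio of 0.669. A ratio of at least 2 was found in 11 of the 49 genes (22.4%, against 18.5% of all genes), and the median ratio was 1.20 over the 49 genes and 1.21 over all genes. In such bulk libraries, less RNA of a gene per cell and fewer cells with it cannot be told apart. Among the called genes the ratio was 3.34 for BBS5, 3.20 for CEP44, 2.17 for IFT80, 1.84 for CEP72, 1.80 for IFT140, 1.77 for CEP164, 1.19 for CEP89 and 0.784 for IFT122.

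**Figure D5:**
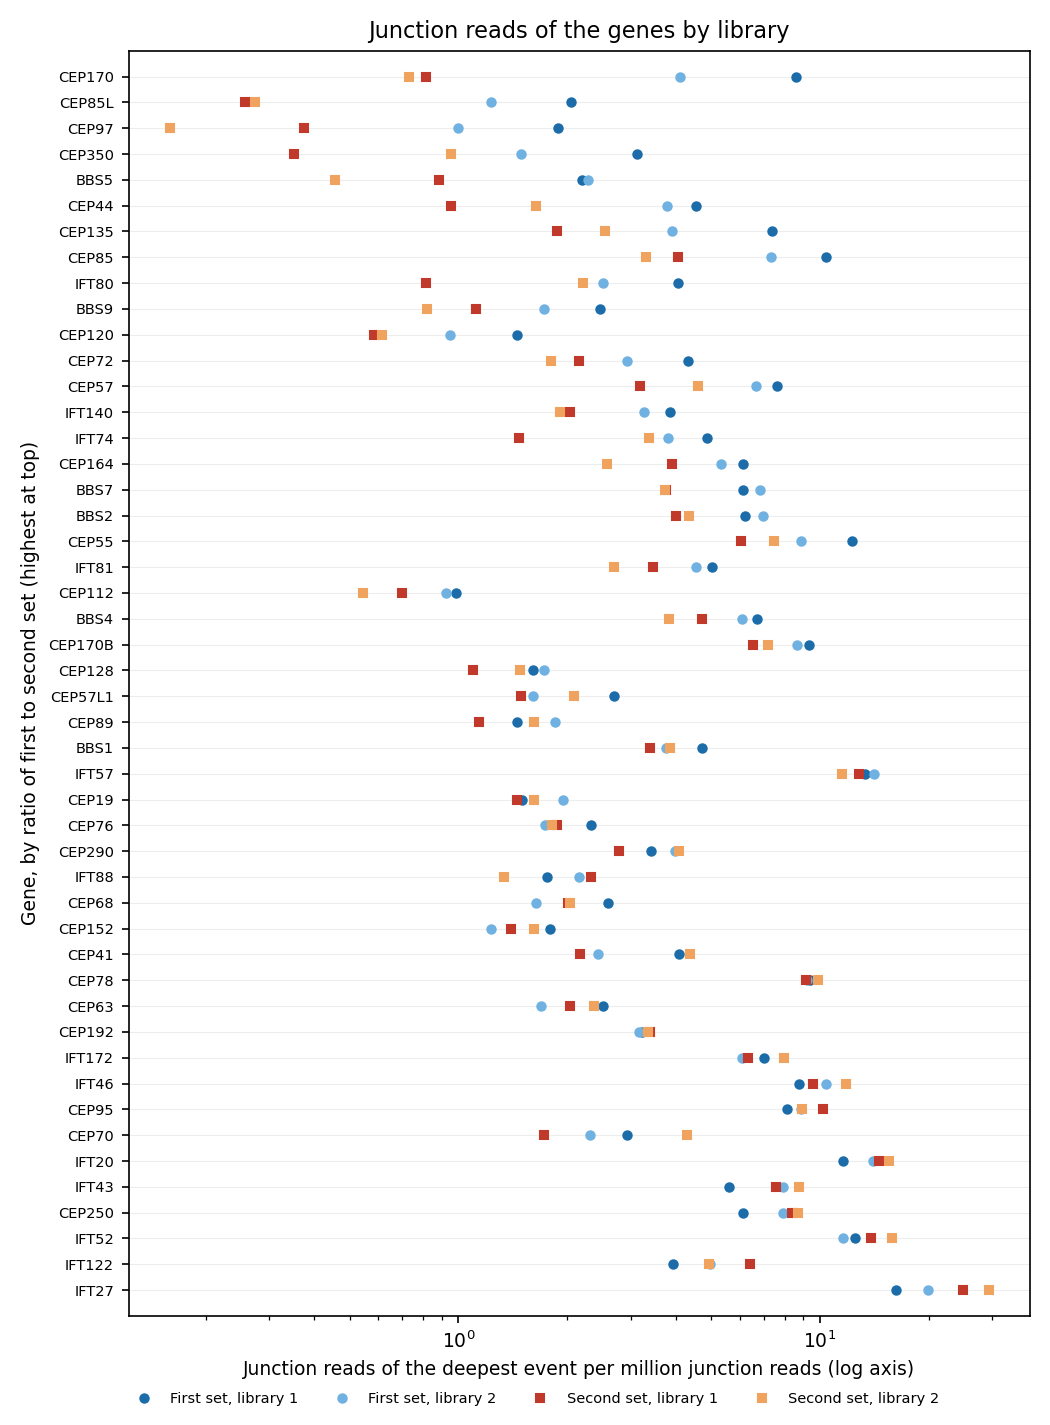
Junction reads of the deepest event of 48 of the 49 genes per 1000000 junction reads of the library (log axis), in the 4 libraries, ordered by the ratio of the first to the second set. CEP170 at the top has 8.60 and 4.10 in the first set against 0.816 and 0.728 in the second, and IFT27 at the bottom has 16.2 and 19.9 against 24.8 and 29.3.

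Genes of the same structures under other names gave a comparison list of 88 genes, of which 84 had 554 tested events. In that list 19 events were called (3.43%, against 2.71% of all tested events). Of these, 7 were higher in the first set (1.26%, against 1.34% of all) and 12 lower (2.17%, against 1.37%). Of 297 events of genes for centriole assembly and pericentriolar material 5 were called (1.68%). Another group held IFT and BBSome subunits under other names and genes listed with them, such as RAB8A, RAB3IP and TULP3. Of its 87 events 4 were called (4.60%), in WDR19, TTC26, LZTFL1 and TULP3. Of 32 events of cilium motors 1 was called (3.12%), and of 138 events of the transition zone, the gate at the cilium base, 9 (6.52%). No test of the difference between these groups and the rest was made. Among the IFT-A genes of this list, WDR19 had a coding exon of 116 nt at 0.803 and 0.967 in the first set and 1.00 in both libraries of the second, with a difference of -0.115 in the authors' deposited table that was -0.033 when library 1 of the first set was left out, -0.197 when its library 2 was, and -0.07 with form lengths left uncorrected. TULP3, which links IFT-A to membrane cargo, had a coding exon of 99 nt at 0.981 and 0.973 in the first set against 0.856 and 0.844 in the second. Its sets were tight and apart, the authors' deposited table gives 0.127 with an FDR of 0.00121, and the difference stayed between 0.122 and 0.133 with any 1 library left out, but was 0.082 with form lengths left uncorrected.

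The centriole gene POC1A had 2 called events on overlapping exons, of 156 and 85 nt, with differences of -0.467 and -0.194 and FDRs of 1.20e-04 and 0.00609 in the authors' deposited table. The second was -0.101 without library 1 of the first set. These 2 events count the same skipping reads and are not independent. The longer form had 0.440 and 0.556 in the first set against 0.929 and 1.00 in the second, from 7 to 31 reads. Its relative POC1B had a coding exon of 81 nt at 0.862 and 0.903 against 1.00 in both libraries of the second set, from 32 and 23 reads. The POC1B difference was -0.117 in the authors' deposited table. It was -0.097 without library 1 of the first set and -0.079 with form lengths left uncorrected. STIL, needed for centriole duplication, had a non-coding exon of 74 nt at 0.129 and 0.245 against 0 in both libraries of the second set, where 1 library had 1 read. In the transition zone and its neighbouring compartment, TCTN1 was higher in the first set by 0.175, and AHI1 and INVS were lower, at -0.378 and -0.206 in the authors' deposited table. Without library 2 of the second set AHI1 was at -0.234 and INVS at -0.126, and without the correction for form lengths TCTN1 was at 0.097.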

How the data were processed

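Poly(A) RNA-seq of 4 HEK293T libraries, 2 per group, was read as pairs of 150 bases per the labels. The submitters' processing notes name cutadapt, STAR and hg19. Per the file headers, the deposited table has the rMATS layout for skipped exons counted on junction reads; the rMATS version and annotation release are not given in the sources used here. The authors deposited junction read counts and inclusion levels as a fraction for each library, the inclusion difference as a score (mean of the first set minus mean of the second), and a p-value with its FDR over all events. Levels recomputed from the reads were within 5.00e-04 of those deposited.

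Computed here were counts of calls, Wilson intervals (95%, counting error only), leave-one-out differences, and a quasi-binomial test per event (limma 3.58.1 in R 4.3.3, dispersion moderated by squeezeVar and at least 1, Benjamini-Hochberg over 54503 events). As planned, its prior came from all events; tested on simulated data this found almost no changed event, so the prior was taken from events with at least 1 read of the rarer form. That choice was made after simulated and real counts of several versions were seen, and the other versions are given with the alternatives. The rMATS test itself was not tested. With 2 libraries per set, precision is limited by their number and by depth. Exons were matched to GENCODE release 29 (GRCh38) by gene identifier and exon spacing, with no coordinate converted; 306 of 316 members matched. The 10 unmatched lie in 2 genes.

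Named events are every called member and the 5 deepest exons of intermediate inclusion in each family. Up to 10 called events of the comparison list are named as well. Other named events fall outside these rules and count as chosen after their values were seen, also where the text does not say so. A few items these rules name are not reported here. The members, lists and rules were chosen with earlier results of these data known. The alternatives were other read minimums, difference and FDR limits, 1 event per exon, no correction for form lengths and each library left out.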

Additional observations from a re-analysis of the deposited data

How the results depend on the processing

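The count of 9 called members was 12 at a mean of at least 10 reads, 4 at 50 reads, 15 with no read minimum, 18 at a difference of at least 0.05, 1 at 0.2, 7 at an FDR under 0.01 and 9 at 1 event per exon or with adjustment over tested events. The 4 members higher in the first set became 2 at 50 reads, 7 with no minimum, 8 at 0.05 and 1 at 0.2; the 5 lower became 2, 8, 10 and 0, and 3 at an FDR under 0.01. Of the called members, 6 to 9 kept a difference of at least 0.1 with 1 library left out, 1 to 4 of those higher and 3 to 5 of those lower; the lowest counts came without library 2 of the second set (6 in all, 1 higher) and library 1 of the first (3 lower). Without the correction for form lengths 4 kept it, 2 higher and 2 lower. These last counts, the one on form lengths chosen after seeing the data, are of the called members only, with no new rMATS test. Members whose sets do not overlap numbered 53 at 50 reads and 23 of 74 at intermediate inclusion only. No share over all tested events at these settings stands beside these counts, so they say nothing particular of the members. The comparison list's 19 calls became 9 at 50 reads, 40 at 0.05 and 4 at 0.2, and 14 to 19 kept their difference with 1 library left out. The median absolute difference stayed from 0.0134 to 0.0237. No called event that is named reversed its direction. Over all events named by rule, the difference moved by more than the spread within sets for 10 of 32 without the correction for form lengths.

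The quasi-binomial test called 0 members at a mean of 10 or 50 reads, with no floor on the dispersion, among events of intermediate inclusion only and with each library left out, with smallest adjusted p-values of 0.644 to 0.907. The correction for form lengths drops out of that test by its construction. Versions chosen after seeing the data gave 0 calls over all events with the prior from all events as first planned, from events with scatter within a set or with the dispersion from the deviance, and 3 and 1 with the prior from events with at least 10 and 30 reads of the rarer form; none of these called a member. With the dispersion raised to 1 before the prior it called 64 events, 1 of them a member (CEP44, the 1331 nt exon, adjusted p = 0.0339 with limma); in the simulated data with scatter between libraries, though not in those with binomial noise, most calls of that version were false. No paired analysis was possible because the table joins both libraries of a set in each cell and carries no replicate numbers. Events under 20 reads, 49 of the 365, were not read, and exons with few reads, such as IFT80 with 5 in 1 library, have wide intervals.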
